A study of Danio rerio with 24 samples.

Results

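The genes described here are 9 zebrafish genes of the temperature response: the chaperone genes hsp70l, hsp90aa1.2, dnajb1b, hspd1 and hspe1, the heat shock factor genes hsf1 and hsf2, and the cold-inducible RNA-binding protein genes cirbpa and cirbpb. They were taken by gene symbol from a table of 31242 genes. No threshold on a value was used, but the members were chosen with earlier results of these data known. All 9 passed the filter on low counts and were tested in every comparison. The larvae were wildtype or klf9-/-, a homozygous frameshift mutation of klf9 (a deletion of 2 bp in exon 1) in a line derived from the AB strain, and the wildtype controls descended from the same grandparents as the mutants. Klf9 is a Krüppel-like transcription factor that glucocorticoids induce. RNA from whole larvae at 5 days post-fertilization was sequenced in 24 pools of 6 larvae, 4 pools for each genotype at each of 3 Zeitgeber times (ZT, hours from the onset of light): ZT-3, in the dark, ZT0, and ZT+2.5, in the light. All groups were raised at 28.5 °C under 14 h of light and 10 h of dark, and no label names a heat, cold or drug treatment. The pools of a group were extracted together as a set, so genotype or time and extraction set cannot be told apart.

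Heat shock factors are transcription factors that bind heat shock elements in the promoters of chaperone genes. At rest, Hsf1 is held inactive by the chaperones themselves (Hsp70, its partner Dnajb1 and Hsp90). When unfolded proteins occupy these chaperones, Hsf1 is released, forms trimers and raises the transcription of their genes, which closes a feedback loop. Cirbp is a glycine-rich RNA-binding protein whose mRNA, in mammals, is favoured by mild cooling and lowered by warming. In mouse cells it follows daily cycles of body temperature and binds transcripts of clock genes, while in zebrafish, whose body temperature is that of the water, light sets the clock directly in most tissues.

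Depth was 41444609 to 64452247 expected counts per pool (median 53578316). The mutated gene was lower in the mutants: klf9 was at 35.7 to 65.6 CPM (expected counts relative to the scaled library total) in wildtype and 10.6 to 19.8 CPM in klf9-/- at ZT-3, at 54.4 to 74.2 and 18.5 to 23.2 CPM at ZT0, and at 15.3 to 38.3 and 4.72 to 18.7 CPM at ZT+2.5, where the groups overlapped. Its log2 fold change was -1.51 ± 0.16 (SE, 12 pools per genotype) over all time points (edgeR quasi-likelihood test, Benjamini-Hochberg adjusted p = 4.79e-07). Markers of the larva's tissues were all detected, and the summed markers of no tissue were at 0 in any group. By the same test over all time points, 5 of 10 liver markers and 9 of 10 exocrine pancreas markers were higher in klf9-/-. Of 8 erythroid markers 4 were lower. None was called of 10 markers of mature neurons, 11 of fast muscle and 12 of lens, beside 4.91% of all genes called in this comparison. In bulk RNA, a change in the number of cells of a type and a change in RNA per cell cannot be told apart. By confocal imaging, the paper measured larger livers in klf9-/- larvae. The first principal component (PC1, 21.7% of the variance of the deposited log values) separated pools of the same group. The study's methods tie their first component largely to RNA extraction and use it as a covariate. The score entered here was rebuilt from the deposited values scaled gene by gene. The paper gives its first component a larger share of the variance, so the decompositions are not the same. How closely the scores match was not tested.

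Below, a gene is called changed where its adjusted p is 0.1 or less and its log2 fold change is 0.5 or more in size, the thresholds of the study. From ZT0 to ZT+2.5, 3 of the 9 genes rose in wildtype (hsp90aa1.2, hsp70l and dnajb1b), where 3.43% of all genes tested were called in either direction and 1.97% upward. The same 3 rose in klf9-/-, where 3.55% of all genes were called and 2.04% upward. From ZT-3 to ZT0, 1 of 9 rose in wildtype (hsf2), beside 2.15% of all genes called and 1.38% upward, and 2 of 9 rose in klf9-/- (hsf2 and hsp90aa1.2), beside 3.60% called and 2.53% upward. Between genotypes, 1 of 9 was called at ZT+2.5 (hsp70l, lower in klf9-/-), beside 2.28% of all genes, 0.609% downward. None of the 9 was called by edgeR or DESeq2 between genotypes at ZT-3 (2.92% of all genes by edgeR), at ZT0 (3.43%) or over all time points (4.91%), although 4, 5 and 7 of them had an unadjusted edgeR p under 0.05, as did 20.4%, 24.4% and 39.1% of all genes.

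Counts without the fold threshold were also taken. The 9 genes are not independent of each other: the log2 CPM of hspd1 and hspe1, for instance, had r = 0.96 over the 24 pools. By the p threshold alone, with no fold threshold, 2, 4 and 3 of 9 differed between genotypes at ZT-3, ZT0 and ZT+2.5 (8.83%, 13.6% and 6.69% of all genes). From ZT-3 to ZT0 it was 6 of 9 in wildtype (11.7% of all genes) and 5 of 9 in klf9-/- (16.6%), and from ZT0 to ZT+2.5 it was 7 of 9 in each (16.6% and 16.7%). Counting instead the genes whose 4 pools in 1 group all lay on the same side of the 4 in the other, there were 1, 2 and 3 of 9 between genotypes at ZT-3, ZT0 and ZT+2.5 (8.64%, 11.5% and 7.64% of all genes). In time there were 2 and 8 of 9 for the earlier and the later step in wildtype (9.81% and 10.9%) and 4 and 7 of 9 in klf9-/- (11.8% and 11.5%).

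**Figure D1:**
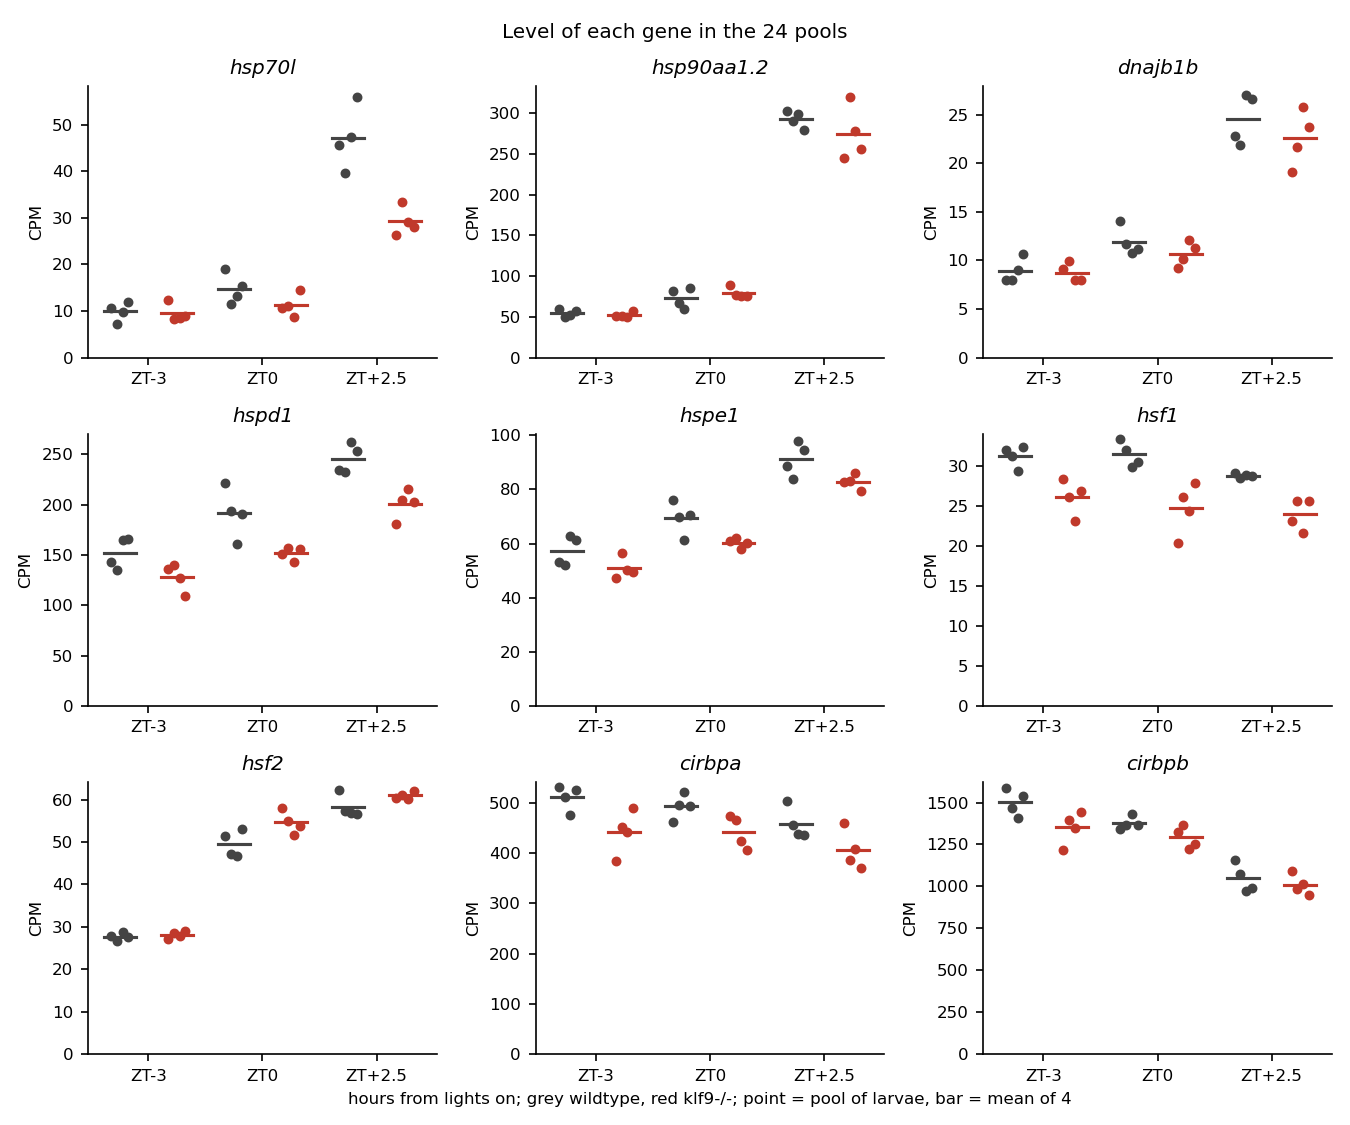
Levels of the 9 genes in CPM (vertical axis, from 0) at ZT-3, ZT0 and ZT+2.5 (horizontal axis). Each point is a pool of 6 larvae, grey for wildtype and red for klf9-/-, and each bar is the mean of 4 pools. The hsp90aa1.2 pools at ZT+2.5 lie between 245 and 319.8 CPM, above all pools of the earlier time points, which reach 89.6 CPM.

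Among the 9 genes, hsp90aa1.2 had the largest log2 fold change from ZT0 to ZT+2.5 in both genotypes. It encodes one of the zebrafish forms of Hsp90α, the chaperone that completes the folding of kinases and of steroid receptors, among them the glucocorticoid receptor. At ZT0 the wildtype pools held 82.2, 67.4, 59.6 and 85.4 CPM, and at ZT+2.5 they held 302, 291, 299 and 279 CPM. In klf9-/- the values were 89.6, 77.4, 75.5 and 75.1 CPM at ZT0 and 245, 319.8, 278 and 256 CPM at ZT+2.5. Every pool in the light was thus far above every pool at light onset, in both genotypes. The log2 fold change of this step was 1.99 ± 0.10 (SE, n = 4 per group), or 3.96-fold, in wildtype (adjusted p = 1.63e-12) and 1.80 ± 0.10, or 3.49-fold, in klf9-/- (adjusted p = 1.07e-11).

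The step before, from ZT-3 to ZT0, was smaller. At ZT-3 hsp90aa1.2 stood at 60.0, 50.4, 52.1 and 57.1 CPM in wildtype and at 50.5, 51.1, 49.3 and 57.8 CPM in klf9-/-. In klf9-/- the 4 pools at ZT0 were all above the 4 at ZT-3, and the difference was called (log2 fold change 0.61 ± 0.10, adjusted p = 1.73e-04). In wildtype a pool at ZT0 (59.6 CPM) lay below the highest at ZT-3 (60.0 CPM), and the log2 fold change of 0.45 ± 0.10 was past the p threshold (adjusted p = 0.00595) but under the fold threshold. Without that ZT0 pool, replicate 3, it was 0.55 (adjusted p = 4.06e-04) and called. Between genotypes the log2 fold changes of hsp90aa1.2 were -0.07 ± 0.07, 0.04 ± 0.12 and -0.09 ± 0.09 at ZT-3, ZT0 and ZT+2.5, none of them past the p threshold, and the groups overlapped at each time point. The counts of hsp90aa1.2 and its paralog hsp90aa1.1 were not whole in 24 of 24 pools. With both copies summed, the genotype log2 fold change was -0.20 at ZT0, -0.14 at ZT+2.5 and -0.15 over all time points, none of them called.

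The gene hsp70l encodes an inducible cytosolic Hsp70, widely used in zebrafish as the marker of a heat shock response, and its promoter drives many heat-inducible transgenes. In wildtype its level was 10.7, 7.19, 9.88 and 11.96 CPM at ZT-3, 19.1, 11.5, 13.3 and 15.3 CPM at ZT0, and 45.7, 39.6, 47.4 and 55.9 CPM at ZT+2.5. In klf9-/- it was 12.5, 8.38, 8.41 and 8.96 CPM at ZT-3, 10.7, 11.1, 8.65 and 14.6 CPM at ZT0, and 26.3, 33.4, 29.1 and 28.04 CPM at ZT+2.5. The pools in the light were the highest in both genotypes, and there the 4 klf9-/- pools were all below the 4 wildtype pools, whereas at the earlier times the genotypes overlapped. The rise from ZT0 to ZT+2.5 was 3.20-fold in wildtype (log2 fold change 1.68 ± 0.16, adjusted p = 3e-07) and 2.53-fold in klf9-/- (1.34 ± 0.17, adjusted p = 9.4e-06). From ZT-3 to ZT0 the log2 fold change was 0.50 ± 0.17 in wildtype (adjusted p = 0.0814), at the fold threshold itself, and 0.25 ± 0.17 in klf9-/- (adjusted p = 0.416). In wildtype it lay between 0.39 and 0.60 when each pool was left out in turn, and its adjusted p reached 0.292 without wildtype ZT0 replicate 4. It was called (0.50 to 0.60) without wildtype ZT-3 replicate 1, ZT0 replicate 2 or 3, or ZT+2.5 replicate 2 or 4, or without klf9-/- ZT-3 replicate 1 or ZT0 replicate 4.

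At ZT+2.5 hsp70l was at 0.632 times the wildtype level in klf9-/- (log2 fold change -0.66 ± 0.10, adjusted p = 0.0116). Same-numbered pools deviated together at this time point. With the replicate number as a block beside PC1 the log2 fold change was -0.47 (adjusted p = 0.0168), past the p threshold but not the fold threshold. With the block in place of PC1, hsp70l was still called. The genotype log2 fold change was -0.07 ± 0.15 at ZT-3 (adjusted p = 0.85) and -0.34 ± 0.21 at ZT0 (adjusted p = 0.371). Whether the difference depends on the time was tested by the interaction of genotype and time, which gave hsp70l an unadjusted p of 0.0579 and an adjusted p of 1. A difference at ZT+2.5 alone was therefore not shown. Among the 9 genes this was the smallest unadjusted p, and 0 of 9 passed the interaction test by edgeR, by DESeq2 or at an unadjusted p under 0.05, beside 0.0173% of all genes called by edgeR and 4.79% with an unadjusted p under 0.05.

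The value of hsp70l depends on how reads were divided among its copies. RSEM, the program the authors used for counting, shares reads that match several genes among them, and the counts of hsp70l were not whole numbers in 24 of 24 pools. The same held for hsp70.1, hsp70.2 and hsp70.3, which encode near-identical Hsp70 proteins. Their own levels were also higher at ZT+2.5: the mean of hsp70.3 went from 18.0 to 56.2 CPM in wildtype and from 22.2 to 44.6 CPM in klf9-/-. With the 4 copies summed, the group means were 40.2 ± 9.2 CPM (SD, n = 4) in wildtype and 49.6 ± 8.5 CPM in klf9-/- at ZT-3, 52.1 ± 7.0 and 55.8 ± 6.9 CPM at ZT0, and 160.1 ± 24.8 and 121 ± 17 CPM at ZT+2.5. The rise from ZT0 to ZT+2.5 was called for the sum in both genotypes (log2 fold change 1.62 and 1.07, adjusted p = 9.81e-08 and 2.42e-05). From ZT-3 to ZT0 the log2 fold change of the sum was 0.29 in wildtype and 0.18 in klf9-/-, neither of them called.

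The genotype difference was not called for the sum. At ZT+2.5 its log2 fold change was -0.37 (adjusted p = 0.0505), under the fold threshold, and at ZT-3, at ZT0 and over all time points it was positive (0.29, 0.08 and 0.03), none past the p threshold, where that of hsp70l alone was negative. The share of hsp70l in the summed counts was 23.7% to 26.3% in wildtype and 18.3% to 20.0% in klf9-/- at ZT-3, 24.5% to 31.8% and 17.3% to 23.99% at ZT0, and 26.8% to 31.1% and 21.6% to 27.1% at ZT+2.5. The mutants gave hsp70l a smaller part of the sum at ZT-3 and ZT0 with no overlap, and at ZT+2.5 the ranges touched. These shares are of counts not scaled by transcript length, and the cause of the difference was not tested.

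**Figure D2:**
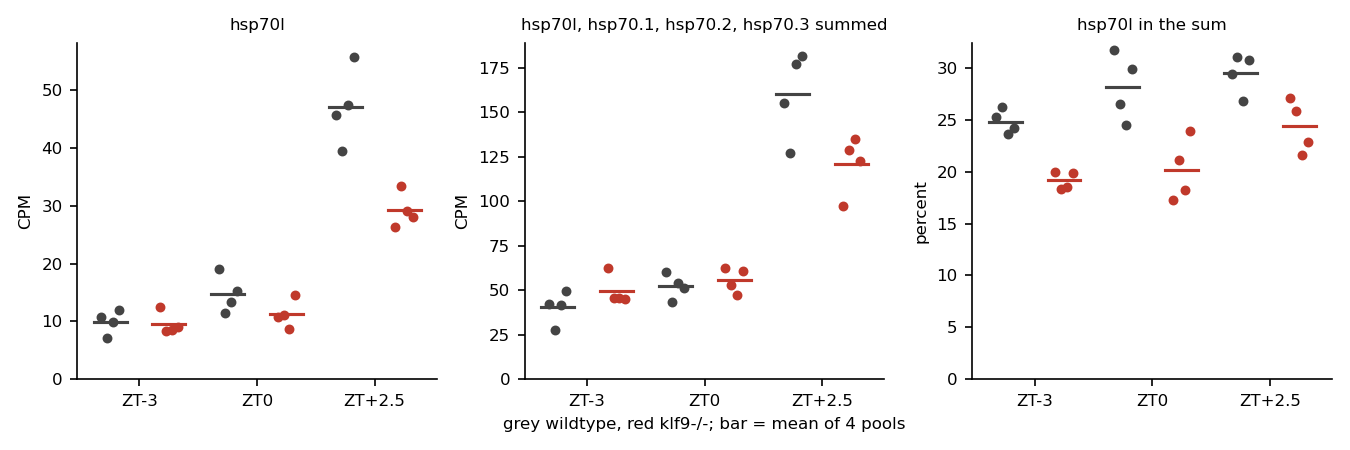
The left panel shows hsp70l and the middle panel the sum of hsp70l, hsp70.1, hsp70.2 and hsp70.3, both in CPM, and the right panel gives hsp70l as a percentage of that sum. Points are pools (grey wildtype, red klf9-/-) at each time point and bars are means of 4. The sum in klf9-/- overlaps wildtype at ZT-3 and ZT0, where the share of hsp70l does not.

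The co-chaperone gene dnajb1b encodes an Hsp40 that delivers clients to Hsp70 and stimulates its ATPase. Its level at ZT0 was 14.0, 11.7, 10.8 and 11.2 CPM in wildtype and 9.19, 10.2, 12.1 and 11.3 CPM in klf9-/-. At ZT+2.5 it was 22.8, 21.9, 27.0 and 26.7 CPM in wildtype and 19.1, 21.7, 25.8 and 23.7 CPM in klf9-/-. All pools in the light exceeded all pools at ZT0, and the genotypes overlapped. The step was 2.08-fold in wildtype (log2 fold change 1.06 ± 0.06, adjusted p = 1.27e-11) and 2.04-fold in klf9-/- (1.03 ± 0.06, adjusted p = 3.59e-11). From ZT-3 (7.98 to 10.7 CPM in wildtype, 7.96 to 9.94 CPM in klf9-/-) to ZT0 the log2 fold changes were 0.31 ± 0.06 and 0.28 ± 0.06, past the p threshold (adjusted p = 0.00373 and 0.00495) and under the fold threshold. Its genotype log2 fold changes, -0.03, -0.07 and -0.09 in order of time, were not past the p threshold. Within groups dnajb1b had the strongest relation to PC1 of the 9 genes (r = -0.88 over the 24 pools after centring on group means, a description), and the PC1 scores of all 6 groups overlapped. Its counts were also not whole in 24 of 24 pools, while those of its paralog dnajb1a were whole in all.

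**Figure D3:**
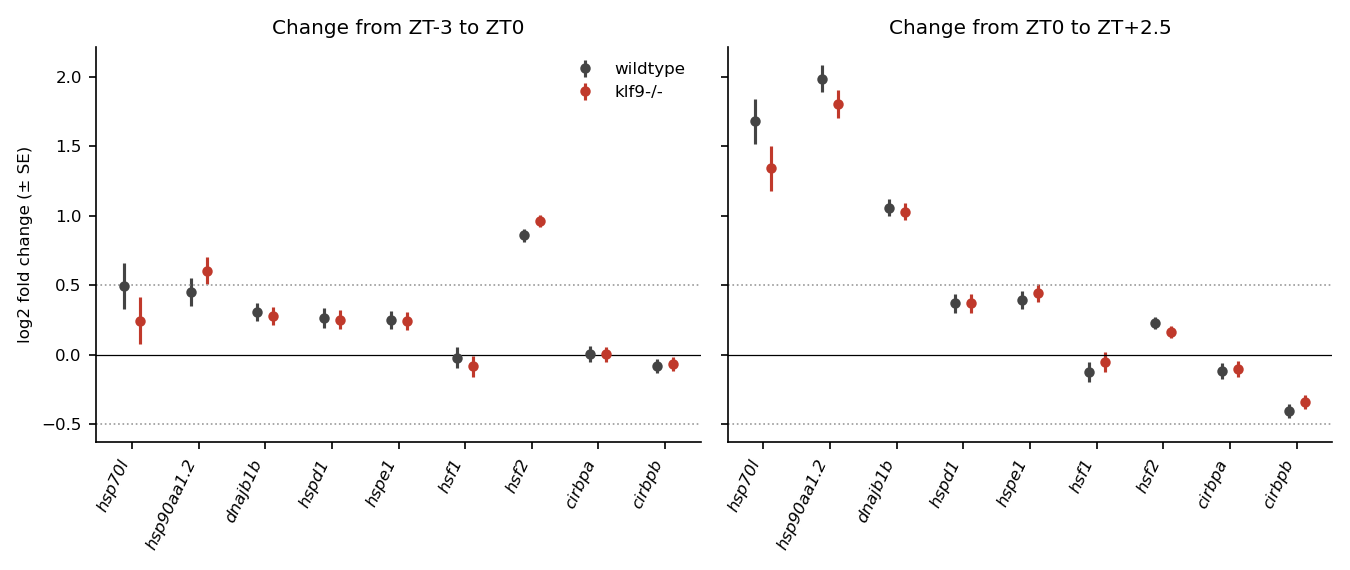
Log2 fold changes (vertical axis, with SE as error bars) of the 9 genes from ZT-3 to ZT0 (left) and from ZT0 to ZT+2.5 (right) in wildtype (grey) and klf9-/- (red), with dotted lines at the threshold of 0.5. On the right hsp70l, hsp90aa1.2 and dnajb1b lie above the line in both genotypes (1.03 to 1.99). On the left hsf2 does in both (0.86 and 0.96), and hsp90aa1.2 in klf9-/- (0.61).

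The mitochondrial pair moved together and less. The genes hspd1 and hspe1 encode Hsp60 and Hsp10, the barrel and the lid of the chaperonin that folds proteins in the mitochondrial matrix, and are neighbours on the chromosome with no gene annotated between them. In wildtype hspd1 was at 143, 135, 165 and 166 CPM at ZT-3, at 221, 193, 160.5 and 191 CPM at ZT0, and at 234, 232, 262 and 253 CPM at ZT+2.5. In klf9-/- it was at 136, 139.8, 127 and 109 CPM, then at 151, 157, 143 and 156 CPM, and then at 181, 204, 216 and 202 CPM. Each step was past the p threshold and under the fold threshold: the log2 fold changes from ZT-3 to ZT0 and from ZT0 to ZT+2.5 were 0.27 ± 0.07 and 0.37 ± 0.07 in wildtype, and 0.25 ± 0.07 and 0.37 ± 0.07 in klf9-/- (adjusted p = 6.2e-04 to 0.0202 over the 4 steps). Without wildtype ZT0 replicate 4 the adjusted p of the wildtype step from ZT-3 to ZT0 was 0.134. For hspe1, whose pools went from 52.0 to 62.7 CPM at ZT-3 to 83.9 to 97.9 CPM at ZT+2.5 in wildtype and from 47.2 to 56.4 CPM to 79.3 to 86.2 CPM in klf9-/-, the same steps were 0.25 and 0.40 in wildtype and 0.25 and 0.45 in klf9-/-, all past the p threshold, and without the same wildtype pool the first of them had an adjusted p of 0.118. Over the 24 pools the log2 CPM of hspd1 and hspe1 had r = 0.96, and r = 0.78 after centring on group means, a description of pools that share depth and extraction.

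Across genotypes hspd1 was among the most regular of the 9 genes. The klf9-/- pools lay below all wildtype pools at ZT0 and ZT+2.5, and at ZT-3 a klf9-/- pool exceeded a wildtype pool in only 2 of 16 pairs. The genotype log2 fold change was -0.26 ± 0.06, -0.31 ± 0.09 and -0.27 ± 0.05 at ZT-3, ZT0 and ZT+2.5 (adjusted p = 0.0284, 0.0666 and 0.0278) and -0.27 ± 0.04 over all time points (adjusted p = 1.27e-05), past the p threshold each time and under the fold threshold. When each pool was left out in turn, its adjusted p reached 0.0869 at ZT-3, 0.248 at ZT0 (without wildtype replicate 4) and 0.109 at ZT+2.5 (without klf9-/- replicate 4). For hspe1 the log2 fold change was -0.17, -0.21 and -0.13 in order of time, past the p threshold at ZT0 (adjusted p = 0.0742, and 0.277 without klf9-/- ZT0 replicate 4), and -0.16 ± 0.04 over all time points (adjusted p = 0.00194).

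The transcription factor genes hsf1 and hsf2 differed from each other in which factor of the design they followed. The master regulator of the heat shock response, hsf1, had log2 fold changes of -0.12 to -0.02 in its 4 time steps, none past the p threshold. In wildtype its levels were 32.0, 31.2, 29.3 and 32.4 CPM at ZT-3, 33.3, 32.0, 29.9 and 30.5 CPM at ZT0, and 29.1, 28.4, 28.8 and 28.8 CPM at ZT+2.5, where all 4 pools lay below the 4 at ZT0 (log2 fold change -0.12). In klf9-/- they were 28.4, 26.1, 23.1 and 26.8 CPM, then 20.4, 26.1, 24.4 and 27.9 CPM, and then 23.1, 25.6, 21.6 and 25.6 CPM. No klf9-/- pool reached the lowest wildtype pool of its own time point, nor that of any other, since the highest mutant value was 28.42 and the lowest wildtype value 28.45 CPM. It was the only one of the 9 genes whose 12 mutant and 12 wildtype pools did not overlap, as for 0.626% of all genes. The log2 fold change was -0.26 ± 0.07, -0.30 ± 0.07 and -0.26 ± 0.07 at the 3 time points (adjusted p = 0.0589, 0.0346 and 0.0618) and -0.28 ± 0.04 over all of them (adjusted p = 1.68e-05), which is 0.823 times the wildtype level and under the fold threshold. When each pool was left out in turn, the adjusted p reached 0.132 at ZT-3 (without wildtype replicate 1), 0.189 at ZT0 (without wildtype replicate 4) and 0.176 at ZT+2.5 (without wildtype replicate 3), and 5.25e-05 over all time points.

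The other factor gene, hsf2, whose product in mammals acts beside Hsf1 and in development, followed the time of day. Its pools at ZT-3 held 27.8, 26.6, 28.8 and 27.5 CPM in wildtype and 27.0, 28.5, 27.7 and 29.0 CPM in klf9-/-. At ZT0 they held 51.5, 47.1, 46.6 and 53.0 CPM in wildtype and 58.0, 55.1, 51.7 and 53.9 CPM in klf9-/-, and at ZT+2.5 62.3, 57.3, 56.7 and 56.5 CPM in wildtype and 60.4, 61.2, 60.2 and 62.0 CPM in klf9-/-. The rise lay between ZT-3 and ZT0, the onset of light, with no overlap between these times in either genotype. No pool was taken between them. It was 1.81-fold in wildtype (log2 fold change 0.86 ± 0.05, adjusted p = 1.03e-11) and 1.95-fold in klf9-/- (0.96 ± 0.04, adjusted p = 6.29e-13). From ZT0 to ZT+2.5 the difference was smaller (0.23 ± 0.04 and 0.17 ± 0.04, adjusted p = 8.61e-04 and 0.0138), again with no overlap. Between genotypes hsf2 was the only member above wildtype over all time points past the p threshold, by a log2 fold change of 0.07 ± 0.03 (adjusted p = 0.0485), higher in klf9-/- in 37 of 48 pairs of pools of the same time point.

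**Figure D4:**
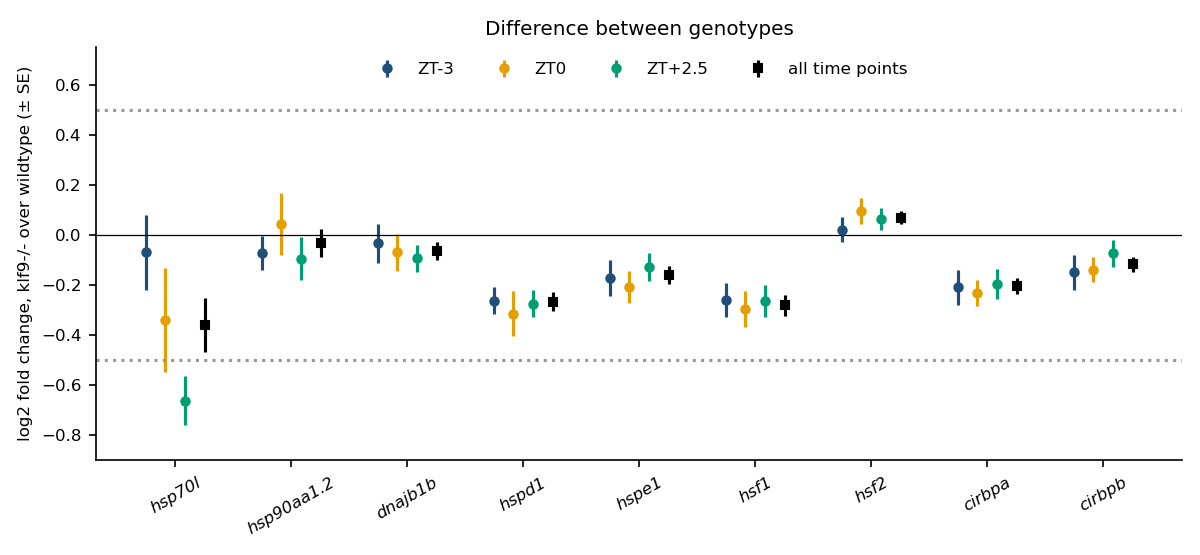
Log2 fold change of klf9-/- over wildtype (vertical axis, with SE) for the 9 genes at ZT-3 (blue), ZT0 (orange) and ZT+2.5 (green) and over all time points (black squares), with dotted lines at the thresholds of 0.5 and -0.5. Only hsp70l at ZT+2.5 (-0.66) lies beyond a line, and hsf1, hspd1 and cirbpa lie between -0.20 and -0.31 at each time point.

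Of the cold-inducible RNA-binding protein genes, cirbpb was lower at ZT+2.5 than at ZT0 by the p threshold in both genotypes, and cirbpa was not past it in any time step. The wildtype pools held 1588, 1466, 1409.55 and 1540.1 CPM of cirbpb at ZT-3, 1345, 1367, 1434 and 1366 CPM at ZT0, and 1158, 1075, 974 and 990.4 CPM at ZT+2.5. Those of klf9-/- held 1219.8, 1395, 1349 and 1442 CPM, then 1324, 1368, 1223 and 1254 CPM, and then 1089, 985 and 1015 CPM in the first 3 pools and 949 CPM in the last. All pools in the light were below all pools at ZT0 in both genotypes. The log2 fold change of that step was -0.40 ± 0.05 in wildtype (adjusted p = 7.53e-06) and -0.34 ± 0.05 in klf9-/- (adjusted p = 7.24e-05), past the p threshold and under the fold threshold, which is 0.756 and 0.791 times the level at ZT0. From ZT-3 to ZT0 it was -0.08 and -0.06, not past the p threshold.

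For cirbpa the wildtype pools ran from 475 to 532 CPM at ZT-3, 463 to 522 CPM at ZT0 and 435 to 504 CPM at ZT+2.5, and the klf9-/- pools from 384 to 490.4 CPM, 405 to 473 CPM and 369.6 to 461 CPM. These ranges overlap throughout, and the log2 fold change from ZT0 to ZT+2.5 was -0.12 ± 0.06 in wildtype (adjusted p = 0.201) and -0.10 ± 0.06 in klf9-/- (adjusted p = 0.313). The ratio of cirbpa to cirbpb counts, not scaled by length, was 0.34 to 0.36 in the wildtype pools at ZT0 and 0.42 to 0.45 at ZT+2.5, and 0.32 to 0.36 and 0.39 to 0.42 in klf9-/-. Within groups the paralogs went up and down together (r = 0.92 over the 24 pools after centring on group means), and both followed PC1 there (r = 0.73 for cirbpa and 0.69 for cirbpb). Between genotypes cirbpa had a log2 fold change of -0.21 ± 0.07, -0.23 ± 0.05 and -0.20 ± 0.06 in order of time (adjusted p = 0.126, 0.0251 and 0.113, the second 0.174 without klf9-/- ZT0 replicate 4) and -0.20 ± 0.03 over all time points (adjusted p = 3.38e-05). For cirbpb it was -0.12 ± 0.03 over all time points (adjusted p = 0.00411), with the largest size at ZT-3 (-0.15 ± 0.07) and the smallest at ZT+2.5 (-0.07 ± 0.05).

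Over all time points, 8 of the 9 genes had a negative genotype log2 fold change and 7 passed the p threshold alone, 6 lower and 1 higher in klf9-/-, beside 36.0% of all genes (16.5% lower and 19.5% higher). Their median was -0.16, beside 0.01 for all genes. Apart from hsp70l, their largest size at a time point was that of hspd1 at ZT0 (-0.31). Over all markers of a list, called or not, the median log2 fold change of the same contrast was 0.52 for liver and 0.77 for exocrine pancreas. For the erythroid list it was -0.39. The summed erythroid markers were at 1010 to 1447 CPM in wildtype and 667 to 982 CPM in klf9-/- over the 3 time points, and the summed liver markers at 2403 to 6012 and 3551 to 6596 CPM. Their part in the small differences of hsf1, hspd1, hspe1 and cirbpa was not tested.

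Among the 17607 named genes compared, those whose log2 CPM was most like each member over the 24 pools are given as a description, since the pools share time, depth and extraction. For hsp90aa1.2 they were the period gene per2 (r = 0.99), cry-dash, a photolyase-family gene (0.99), and the DNA repair gene xpc (0.99). For hsf2 they were the cryptochrome gene cry1b (0.99), the period gene per3 (0.99) and cyp2ad6 (0.98), and for hsp70l they were dnajb1a (0.96), srrt (0.96) and hsp90aa1.1 (0.95). The closest to dnajb1b were dnajb1a (0.98) and dnaja1 (0.97), and with the fit on PC1 removed they were hsp90aa1.2 (0.99) and the DNA glycosylase gene neil1 (0.99). For hspd1 the first was the endoplasmic reticulum chaperone gene hsp90b1 (0.97), for hspe1 the Hsp110-family gene hspa4a (0.98), and for cirbpb the RNA-binding protein gene ewsr1b (0.95). For cirbpa they were the histone variant gene h2az2b (0.93), the transcription factor gene sox19a (0.91) and hnrnpa0l (0.91). The lowest of the best matches belonged to hsf1 (shc1, 0.89). Between members the most opposite pair was dnajb1b and cirbpb (r = -0.90), and after centring on group means it was -0.49.

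The wider network was read from 8 lists of chaperone, co-chaperone, heat shock factor and RNA-binding genes, 141 of whose 150 genes were tested. These lists, too, were chosen with earlier results of these data known. From ZT0 to ZT+2.5, 18 rose in wildtype and 19 in klf9-/-, 18 of them in both, beside 1.97% and 2.04% of all genes. In the same step 4 fell in wildtype and 5 in klf9-/-, 2 of them in both, beside 1.46% and 1.51% of all genes. Genes of cytosolic Hsp70 and Hsp110 and their partners supplied 8 of 22 in each genotype, with a list median log2 fold change of 0.27 in both, beside -0.0016 and -0.0038 for all genes. The largest was hspa1b, another inducible Hsp70, whose counts were whole in all pools: it went from 1.36 ± 0.21 to 7.65 ± 1.91 CPM (SD, n = 4) in wildtype (log2 fold change 2.51 ± 0.18, adjusted p = 1.21e-09) and from 1.38 ± 0.12 to 9.82 ± 2.16 CPM in klf9-/- (2.78 ± 0.19, adjusted p = 2.99e-10). Its genotype log2 fold change at ZT+2.5 was 0.37 ± 0.21, not past the p threshold (adjusted p = 0.383). The copies hsp70.2 and hsp70.3 rose by 1.57 and 1.65 on the log2 scale in wildtype and by 0.95 each in klf9-/-. Their counts, like those of hsp70l, were not whole in 24 of 24 pools, so these rises may not be independent of that of hsp70l.

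Among Hsp90 and its partners 4 of 19 rose in wildtype and 5 in klf9-/-. The paralog hsp90aa1.1, which zebrafish need to fold myosin in muscle, rose by 1.38 and 1.499 on the log2 scale, and the Hsp90 partner chordc1a by 1.08 and 1.04. Reads of hsp90aa1.1 and hsp90aa1.2 were also divided by RSEM in 24 of 24 pools, and the sum of both rose by 1.66 and 1.67 on the log2 scale from ZT0 to ZT+2.5. For the sum the step from ZT-3 to ZT0 was called in both genotypes (0.57, adjusted p = 0.00401, and 0.54, adjusted p = 0.00287). The co-chaperone gene fkbp5, a target of the glucocorticoid receptor that dampens its activity, ran against the list: it rose from ZT-3 to ZT0 by 1.07 and 1.15 on the log2 scale and fell from ZT0 to ZT+2.5 by 1.55 and 1.80 on the log2 scale (154 ± 25 to 52.0 ± 25.5 CPM in wildtype, 182 ± 26 to 54.7 ± 22.4 CPM in klf9-/-). Of 33 DnaJ genes only dnaja1 (0.94 and 1.03) and dnajb1a (0.74 and 0.76) rose, and dnajc21 fell past both thresholds in klf9-/- (-0.50), while in wildtype its value was -0.44 (adjusted p = 0.0147).

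The Hsp47 gene serpinh1b, which encodes the collagen chaperone of the endoplasmic reticulum, had the largest step of its list. Its wildtype means were 20.5 ± 1.3 CPM at ZT-3, 36.2 ± 5.5 CPM at ZT0 and 170.2 ± 6.6 CPM at ZT+2.5, and those of klf9-/- were 19.95 ± 2.29, 32.6 ± 6.3 and 149 ± 13 CPM. The last step was 4.69-fold and 4.63-fold (adjusted p = 8.81e-12 and 1.37e-11), and its paralog serpinh1a rose by 0.74 and 0.65 on the log2 scale. In the same list the heme oxygenase gene hmox1a fell in klf9-/- (-0.83, adjusted p = 0.0227) and had a value of -0.53 in wildtype (adjusted p = 0.177). The factor gene hsf5, at group means of 0.13 to 0.25 CPM in these groups, fell in wildtype (-0.92, adjusted p = 0.0501) and had a value of -0.15 in klf9-/- (adjusted p = 0.84). Of 11 small heat shock protein genes, hspb11 rose from ZT0 to ZT+2.5 (0.73 and 0.78). The gene hspb6 rose from ZT-3 to ZT0 (1.25 and 0.90) and fell from ZT0 to ZT+2.5 in klf9-/- (-0.996). In wildtype the second value was -0.46 (adjusted p = 0.0221), under the fold threshold. None of 14 mitochondrial chaperone and protease genes and none of 14 cytosolic chaperonin TRiC and prefoldin genes was called in any time step. By the p threshold alone, 8 and 6 of the mitochondrial genes lay above ZT0 at ZT+2.5 in wildtype and klf9-/-. Of the TRiC and prefoldin genes it was 6 and 6, and no gene of either list lay below ZT0. Beside them stood 16.6% and 16.7% of all genes, counted in either direction.

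Of 18 other RNA-binding and splicing-kinase genes, clk4a, which encodes a kinase of splicing factors whose mammalian relatives are sensitive to temperature, rose in both genotypes (0.67 and 0.70). The splicing factor gene srsf5b fell in both (-0.57 and -0.51), and srsf5a fell in wildtype (-0.60, adjusted p = 6.3e-09) and had a value of -0.47 in klf9-/- (adjusted p = 3.97e-07), under the fold threshold. Over the 18 genes the median of this step was 0.01 in wildtype and -0.0026 in klf9-/-.

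**Figure D5:**
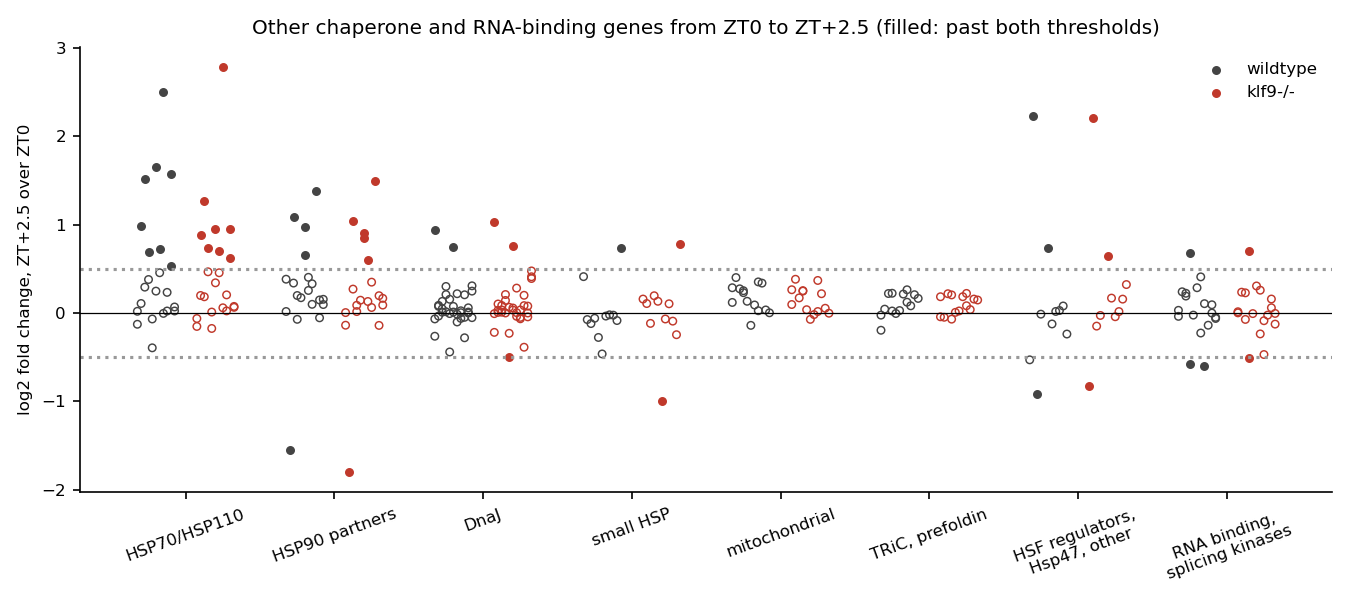
Log2 fold change from ZT0 to ZT+2.5 (vertical axis) of the 141 genes of the 8 lists, in wildtype (grey) and klf9-/- (red). Each point is a gene, filled where past both thresholds, and dotted lines mark 0.5 and -0.5. The highest filled points are hspa1b (2.51 and 2.78) and serpinh1b (2.23 and 2.21), the lowest is fkbp5 (-1.55 and -1.80), and no mitochondrial or TRiC gene is filled.

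Between genotypes edgeR called 2 of the 141 list genes at ZT-3, 3 at ZT0, 0 of 140 at ZT+2.5 and 2 over all time points, beside 2.92%, 3.43%, 2.28% and 4.91% of all genes. An unadjusted edgeR p under 0.05 was found for 52 of 141 at ZT-3 (20.4% of all genes) and 52 of 141 at ZT0 (24.4%). Over all time points it was 85 of 141 (39.1%). DESeq2 called ahsa1a (lower), hspb9 and hmox1a (both higher) at ZT+2.5. At ZT-3 it called 5 higher (hsp70.1, hspb6, hspb9, hsf4 and hmox1a) and 1 lower (ahsa1a). At ZT0 and over all time points it called the same genes as edgeR. Its shares of all genes are not given here. Over all time points ahsa1a, which encodes an activator of the Hsp90 ATPase, was lower in klf9-/- (1.09 ± 1.08 CPM, SD over 12 pools, against 7.15 ± 3.01 CPM in wildtype, log2 fold change -2.65 ± 0.42, adjusted p = 9.14e-05), and hmox1a, which encodes the stress-inducible heme oxygenase, was higher (8.85 ± 3.68 against 5.26 ± 2.702 CPM, 0.95 ± 0.14, adjusted p = 2.9e-05). Both were also called at ZT0 (-2.28, adjusted p = 0.0594, and 1.19, adjusted p = 3.59e-04). The third gene called there was the RNA-binding protein gene hnrnpa0b, higher in klf9-/- (54.7 ± 4.0 against 37.6 ± 4.9 CPM, 0.51 ± 0.10, adjusted p = 0.0186). At ZT-3 hspb6 (0.70, adjusted p = 0.0111) and hsf4, the heat shock factor of the lens (0.89, adjusted p = 0.0817), were higher in klf9-/-, and 3 of 12 lens markers were higher with them (median of the 12, 0.58). The part of lens RNA in these values was not tested, and hsf4 itself is one of the 12. By the p threshold alone, 21 of the 141 genes were higher and 56 lower over all time points, beside 19.5% and 16.5% of all genes. The lower ones included 13 of 19 Hsp90 and partner genes, 12 of 33 DnaJ genes and 8 of 14 TRiC and prefoldin genes, whose list medians were -0.12, -0.06 and -0.12. Of the 11 small heat shock protein genes 5 were higher and 1 was lower, with a list median of 0.16.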

How the data were processed

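Total RNA of 24 pools was sequenced as single-end reads. Per the labels and the methods, the authors trimmed reads with Trim Galore 0.6.5, aligned them with STAR 2.7.5c and counted them with RSEM 1.3.3 on Ensembl release 101. They deposited expected counts (estimated counts, not normalized, 18.0% of them not whole) for 31242 genes, and rlog values (regularized log2, deposited for 25362 genes, made with DESeq2). Rows that share a symbol were summed. The deposited tables of fold changes and p-values are the authors' own comparisons and were not used.

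Expected counts were rounded, low genes were removed with filterByExpr, and TMM factors (0.925 to 1.07) scaled the library totals. Levels are CPM on these scaled totals, and 2 was the prior count of log2 CPM. Levels are not scaled by gene length, so they are compared between groups and not between genes. The quasi-likelihood test of edgeR 4.0.16 (R 4.3.3, limma 3.58.1), with the PC1 score of the deposited rlog values as covariate, was fitted on all genes: on the 8 pools of a time point, on all 24 with time as a factor, and on 6 group means for time steps and the interaction. p-values were adjusted by Benjamini-Hochberg over all genes tested, and SE is the log2 fold change over the square root of F. The same scripts were tested on simulated data. DESeq2 1.42.0, other scalings, no filter, no PC1, the replicate number as a block and each pool left out were tried. Sums over the hsp70 and hsp90aa1 copies were added after the values were seen.

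Named genes are the 9 members, klf9, the 3 genes most like each member, and at most 3 called genes per list and comparison. The members and lists were chosen with earlier results of these data known. The lowest expected count of a member in a pool was 339 (dnajb1b), and replicates of a group differed by 7.37 to 91.1 times counting noise (median 41.1, 36 pairs). Pools come from separate dishes. At ZT+2.5 the deviations of same-numbered wildtype and klf9-/- pools correlated by 0.25 to 0.47 in all 4 pairs, and in no other comparison did every pair pass 0.1. At ZT-3 the pairs ran from -0.353 to -0.0004, and at ZT0 from -0.351 to 0.0164. The PC1 score fell with replicate number in both genotypes at ZT+2.5, and ran in opposite directions in the genotypes at ZT-3 and ZT0. Whether same-numbered pools share more than PC1 was not tested. The 9 members were matched by symbol to RefSeq names, and promoter motifs were not analysed here.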

Additional observations from a re-analysis of the deposited data

Results flagged for a closer look

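In 3 of the 54 groups of 4 pools (9 genes in 6 groups), 1 pool lay far from the other 3 by Dixon's test, where chance gives about 1 in 20. In klf9-/- at ZT-3, replicate 1 had 12.5 CPM of hsp70l and the other pools 8.38 to 8.96 CPM. In klf9-/- at ZT0, replicate 1 had 89.6 CPM of hsp90aa1.2 and the others 75.1 to 77.4 CPM. In wildtype at ZT+2.5, replicate 1 had 62.3 CPM of hsf2 and the others 56.5 to 57.3 CPM. Without that klf9-/- ZT0 pool the step of hsp90aa1.2 from ZT-3 in klf9-/- was 0.55 on the log2 scale, the lowest value with 1 pool left out, and it was still called. The cause was not tested.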

How the results depend on the processing

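Of the counts of members called, most changes came from the fold threshold. By the p threshold alone the counts between genotypes were 2, 4 and 3 of 9 in order of time (8.83%, 13.6% and 6.69% of all genes). With all pools it was 7 (36.0%). For the wildtype steps the counts were 6 and 7 (11.7% and 16.6%), and for the klf9-/- steps 5 and 7 (16.6% and 16.7%). The wildtype count from ZT-3 to ZT0 was 2 without PC1, with RLE size factors and with the replicate block without PC1, since hsp70l lies at the fold threshold, and 1 to 3 with each pool left out. Of all genes, 497 were called in that step, and 349 to 649 with each pool left out. With the replicate block beside PC1 the genotype count at ZT+2.5 was 0. The block changed no other call of a member beside PC1. Only at ZT+2.5 between genotypes did every same-numbered pair correlate by over 0.1. For all genes, calls between genotypes at ZT-3, ZT0 and ZT+2.5 were 661, 772 and 514, and 347, 473 and 144 without PC1. With the replicate block in place of PC1 they were 108 and 164 at ZT-3 and ZT0, and in the fit on 6 group means 774 at ZT+2.5. They were 402, 493 and 260 without klf9-/- replicate 3 at ZT-3, replicate 4 at ZT0 and replicate 3 at ZT+2.5. The interaction gave 4 genes by edgeR and 35 by DESeq2, 1 without PC1 with or without the block, and 2 without wildtype ZT-3 replicate 4 or 11 without klf9-/- ZT+2.5 replicate 1. Several uncalled values near 0 changed sign, among them cirbpa in the ZT-3 to ZT0 steps, and hsf2 between genotypes at ZT-3 (-0.04 with library size only). The cause was not tested.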
